A study of Mus musculus with 8 samples.

Results

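Aminoacyl-tRNA synthetases attach amino acids to their tRNAs, and their genes were followed here across 3 populations of mouse dendritic cell (DC) progenitors. The members were the array probe sets that the platform annotation assigns to exactly 1 gene of the family: the synthetases of the cytosol, those of mitochondria (symbols ending in 2), and the scaffold genes Aimp1 and Aimp2. They came to 37 of 28853 probe sets and stand for 36 of the 19938 genes that have a probe set of their own. Of these genes, 18 encode cytosolic synthetases, 16 mitochondrial ones and 2 scaffold proteins, and Iars alone has 2 probe sets. All 36 genes passed the filter on low signal, which required 2 or more arrays with a value over the 40th percentile of the same array. The probe set of Aars also carries Exosc6, so Aars is not analysed here, and neither is Dars.

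The groups were pre-CD8 DCs (2 arrays), common DC progenitors (CDPs) with low Zeb2 signal, called Zeb2low CDPs (3 arrays), and CDPs with high Zeb2 signal, called Zeb2hi CDPs (3 arrays). All cells came from bone marrow of mice that carry 1 allele of a fusion between Zeb2, a transcription factor gene, and green fluorescent protein, so the Zeb2hi cells carry the reporter as well. They were sorted by flow cytometry, and RNA was amplified with a whole-transcriptome kit for small amounts before hybridisation to Affymetrix arrays. The labels give no age, sort markers or number of mice, and do not say whether replicates were separate sorts, and the p-values therefore reflect only variation among these arrays, which could be technical. The study set out to compare expression among DC progenitors along their development, and the labels give no times for these stages.

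Each amino acid has its own synthetase, and most cells use one enzyme in the cytosol and a second, nuclear-encoded one in mitochondria. The enzymes fall into 2 structural classes, I and II, which differ in the fold of the catalytic domain. In mammals a group of cytosolic synthetases is held together in the multi-synthetase complex by the scaffold proteins Aimp1, Aimp2 and Eef1e1. Many cytosolic synthetase genes are known targets of ATF4, the transcription factor of the amino acid and stress response, and synthetase expression is generally high in growing and dividing cells. In DC development, CDPs are proliferating precursors and pre-CD8 DCs are a more committed stage of the lineage that gives rise to conventional type 1 DCs (cDC1s).

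Promoters were available in the RefSeq table (assembly GRCm38.p6) for 27 of the 36 genes, as windows from 250 bases before to 50 after the transcription start. The element through which ATF4 and C/EBP factors are known to act, searched as TGATGNAAN on both strands, was present in 4 of the 27 promoters, against 3.95% of 32851 promoters of the same length. The 4 genes were Gars and Tars, both lower in Zeb2low CDPs and in pre-CD8 DCs than in Zeb2hi CDPs, and Iars and Yars, whose differences did not pass the main test. In Zeb2low CDPs a second Iars probe set did pass by itself (limma adjusted p = 0.0143). Yars passed there in fits that block on the replicate number. Their stretches from 60 bases before to 15 after the start are shown with the element in capitals, because these members share its letters close to the start. They lie at chr4:129189843-129189917 on the + strand (Yars), chr6:55037941-55038015 on the + strand (Gars), chr13:49682070-49682144 on the + strand (Iars) and chr15:11399644-11399718 on the - strand (Tars).
Yars: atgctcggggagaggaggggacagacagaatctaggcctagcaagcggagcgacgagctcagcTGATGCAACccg
Gars: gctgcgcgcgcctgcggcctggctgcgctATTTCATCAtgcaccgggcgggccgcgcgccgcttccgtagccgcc
Iars: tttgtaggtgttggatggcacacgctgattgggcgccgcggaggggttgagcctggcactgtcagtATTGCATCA
Tars: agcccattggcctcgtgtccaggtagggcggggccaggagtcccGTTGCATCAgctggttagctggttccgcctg
In Yars the element runs in the direction of the gene, and in the other 3 genes it lies on the opposite strand. The E-box CACGTG was present in the promoters of Ears2, Farsb, Iars and Tars, 4 of 27 against 7.15% of all promoters. The ETS motif CCGGAAG was present in 11 of 27, against 8.86%: those of Aimp1, Aimp2, Cars2, Farsa, Gars, Kars, Mars1, Mars2, Rars2, Sars and Sars2. The 3 motifs were chosen after the values of the genes were known, and a match describes letters only.

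Signals are given as log2 of the deposited intensity. Array medians lay between 4.91 and 5.14, and replicate arrays correlated at r = 0.937 in pre-CD8 DCs, 0.939 to 0.976 in Zeb2low CDPs and 0.971 to 0.989 in Zeb2hi CDPs over the 13356 genes tested. Zeb2 itself followed the labels: its probe set read 6.93 and 6.53 in pre-CD8 DCs, 7.49, 7.69 and 7.86 in Zeb2low CDPs, and 9.45, 9.05 and 9.32 in Zeb2hi CDPs. The 9 measured cDC1 markers averaged 8.85 and 8.27 in pre-CD8 DCs, 7.43, 7.29 and 7.28 in Zeb2low CDPs, and 6.22, 6.09 and 6.06 in Zeb2hi CDPs. Most neutrophil markers gave signal on every array: all 13 lay above the array's 40th percentile on 7 arrays and 11 on Zeb2hi array 3, where Mmp9 and Ly6g did not. Their mean was 11.92 and 9.97 in pre-CD8 DCs, 9.54, 11.52 and 10.70 in Zeb2low CDPs, and 9.25, 10.05 and 8.40 in Zeb2hi CDPs.

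Compared with Zeb2hi CDPs, Zeb2low CDPs had lower signals of many synthetase genes, chiefly those of the cytosol. Of the 36 genes 16 were lower at an adjusted p under 0.05 (limma across all 13356 genes) and 0 were higher, where 10.3% of all genes tested were lower and 4.5% higher. Among the 6248 genes at least as bright as the dimmest cytosolic member, 16.1% were lower. The median log2 difference over the members was -0.57, against 0.03 over all genes, and 33 of the 36 differences were negative. In 21 members every Zeb2low array lay below every Zeb2hi array, a pattern seen in 21.5% of all genes (41.8% in either direction). By compartment, 12 of 18 cytosolic, 2 of 16 mitochondrial and 2 of 2 scaffold genes were lower, with median differences of -0.87, -0.33 and -0.99. In sorted bulk samples, fewer cells that express a gene and less RNA of it per cell cannot be told apart.

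**Figure D1:**
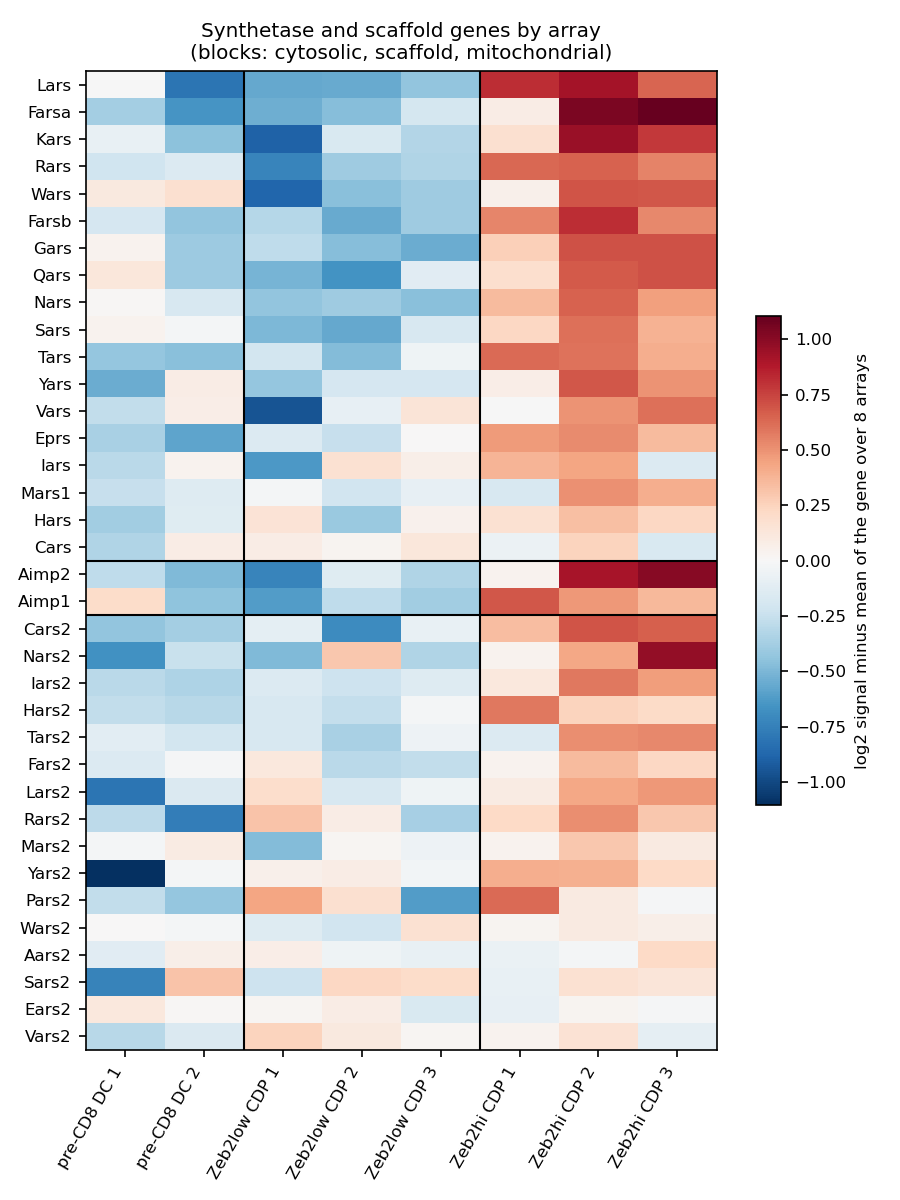
Log2 signal of each of the 36 genes on each of the 8 arrays, as the difference from the gene's mean over all arrays (colour scale in log2 units; red above and blue below the mean). The 3 Zeb2hi columns at the right are red for most cytosolic and both scaffold genes, and the lower part of the mitochondrial block has little contrast between groups.

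Among the members of the multi-synthetase complex, 7 of 9 measured genes were lower in Zeb2low CDPs. Lars, leucyl-tRNA synthetase, which in human cells also acts as a leucine sensor for mTORC1, read 7.31, 7.32 and 7.44 in Zeb2low CDPs, against 8.69, 8.79 and 8.52 in Zeb2hi CDPs. Its log2 difference of -1.31 ± 0.21 (SE) was the largest of the family (2.49-fold lower, adjusted p = 0.00648), and the groups did not overlap. Rars, arginyl-tRNA synthetase, read 7.81, 8.14 and 8.20 in Zeb2low CDPs, against 9.18, 9.19 and 9.09 in Zeb2hi CDPs (difference -1.10 ± 0.15, adjusted p = 0.00347). Kars, the lysyl-tRNA synthetase of both cytosol and mitochondria, read 6.75, 7.48 and 7.32 in Zeb2low CDPs, against 7.82, 8.60 and 8.43 in Zeb2hi CDPs (difference -1.10 ± 0.26, adjusted p = 0.0253). Zeb2low array 1 was well below the other two of its group for Kars. Qars, glutaminyl-tRNA synthetase, read 6.39, 6.24 and 6.78 in Zeb2low CDPs, against 7.09, 7.59 and 7.61 in Zeb2hi CDPs (difference -0.96 ± 0.22, adjusted p = 0.0243). Eprs, the fused glutamyl- and prolyl-tRNA synthetase, read 8.10, 8.0 and 8.26 in Zeb2low CDPs, against 8.72, 8.78 and 8.60 in Zeb2hi CDPs. Its groups were tight and apart, with a smaller difference of -0.58 ± 0.14 (adjusted p = 0.0276).

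Both scaffold genes moved with these enzymes. Aimp1, also known as the secreted cytokine precursor p43, read 7.08, 7.42 and 7.32 in Zeb2low CDPs, against 8.39, 8.18 and 8.06 in Zeb2hi CDPs (difference -0.93 ± 0.20, adjusted p = 0.0177). Aimp2, the scaffold on which the complex assembles, read 6.99, 7.58 and 7.38 in Zeb2low CDPs, against 7.76, 8.63 and 8.73 in Zeb2hi CDPs (difference -1.05 ± 0.27, adjusted p = 0.0329). For Aimp2 the highest Zeb2low array came close to the lowest Zeb2hi array. Of the complex, Iars and Mars1 did not pass the test. Mars1, methionyl-tRNA synthetase, read 7.13, 6.94 and 7.06 in Zeb2low CDPs, against 6.97, 7.65 and 7.55 in Zeb2hi CDPs (difference -0.35 ± 0.19, adjusted p = 0.233). The brighter Iars probe set (isoleucyl-tRNA synthetase) read 7.82, 8.62 and 8.52 in Zeb2low CDPs, against 8.83, 8.89 and 8.31 in Zeb2hi CDPs (difference -0.35 ± 0.25, adjusted p = 0.344). The second Iars probe set read 7.73, 7.90 and 8.11 in Zeb2low CDPs, against 8.62, 8.90 and 8.80 in Zeb2hi CDPs, with a difference of -0.86 ± 0.17 (adjusted p = 0.0143 with every probe set tested by itself). The probe sets of Iars thus fell on opposite sides of the threshold.

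Of the 11 cytosolic synthetase genes outside the complex, 7 were lower in Zeb2low CDPs, against 2 and 3 without Zeb2hi arrays 2 and 3. Phenylalanyl-tRNA synthetase is built of 2 kinds of subunit, and the genes of both were lower. Farsa, the alpha subunit, read 6.37, 6.44 and 6.71 in Zeb2low CDPs, against 7.0, 7.95 and 8.02 in Zeb2hi CDPs (difference -1.15 ± 0.27, adjusted p = 0.0248). Farsb, the beta subunit, read 7.34, 7.10 and 7.26 in Zeb2low CDPs, against 8.19, 8.48 and 8.19 in Zeb2hi CDPs (difference -1.05 ± 0.15, adjusted p = 0.00492). The Zeb2hi arrays were uneven for Farsa, with array 1 nearest to the Zeb2low range, and even for Farsb. Wars, the tryptophanyl enzyme known for its induction by interferon-gamma, read 5.94, 6.35 and 6.42 in Zeb2low CDPs, against 6.87, 7.51 and 7.50 in Zeb2hi CDPs (difference -1.06 ± 0.21, adjusted p = 0.0149). Gars, glycyl-tRNA synthetase of both compartments, read 8.01, 7.81 and 7.74 in Zeb2low CDPs, against 8.55, 8.99 and 8.99 in Zeb2hi CDPs (difference -0.99 ± 0.19, adjusted p = 0.0118). Nars, asparaginyl-tRNA synthetase, read 8.35, 8.40 and 8.32 in Zeb2low CDPs, against 9.13, 9.44 and 9.24 in Zeb2hi CDPs (difference -0.92 ± 0.14, adjusted p = 0.00568). Its Zeb2low arrays were close together and far below the Zeb2hi arrays. Sars, seryl-tRNA synthetase, read 6.86, 6.79 and 7.18 in Zeb2low CDPs, against 7.58, 7.97 and 7.74 in Zeb2hi CDPs (difference -0.82 ± 0.16, adjusted p = 0.0148). Tars, threonyl-tRNA synthetase, read 6.45, 6.18 and 6.60 in Zeb2low CDPs, against 7.28, 7.26 and 7.06 in Zeb2hi CDPs (difference -0.79 ± 0.15, adjusted p = 0.0139).

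Yars, Vars, Hars and Cars did not pass the test. Yars, tyrosyl-tRNA synthetase, read 6.30, 6.55 and 6.55 in Zeb2low CDPs, against 6.81, 7.42 and 7.23 in Zeb2hi CDPs (difference -0.69 ± 0.22, adjusted p = 0.0658). Vars, the valyl enzyme, read 7.02, 7.89 and 8.13 in Zeb2low CDPs, against 7.97, 8.47 and 8.59 in Zeb2hi CDPs (difference -0.67 ± 0.29, adjusted p = 0.152). Yars had groups that did not overlap, while the highest Vars value in Zeb2low CDPs exceeded the lowest in Zeb2hi CDPs. Hars had a difference of -0.31 ± 0.18 and Cars one of 0.07 ± 0.17, the only cytosolic difference above 0. Genes were assigned to classes by amino acid, with Eprs counted in class I only, although its prolyl part is of class II. Farsa and Farsb, subunits of the same enzyme, both counted in class II. By structural class, 7 of 8 class II and 5 of 10 class I cytosolic genes were lower. These became 2 and 2 without Zeb2hi array 2 and 3 and 2 without Zeb2hi array 3, and class I had 3 without Zeb2low array 1 or 2. The labels do not pair the arrays. Zeb2low and Zeb2hi arrays of the same number were taken as pairs because their deviations from the group means correlated. In a fit of the 6 CDP arrays alone that blocks on this number, 19 members were lower. Yars (adjusted p = 0.0106), Vars (adjusted p = 0.0152) and the mitochondrial Hars2 (adjusted p = 0.0401) then passed, and 2534 of all genes were lower. With the block over all 8 arrays 15 members were lower: Yars passed (adjusted p = 0.0379), and Eprs (adjusted p = 0.0599) and Iars2 (adjusted p = 0.0784) did not.

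**Figure D2:**
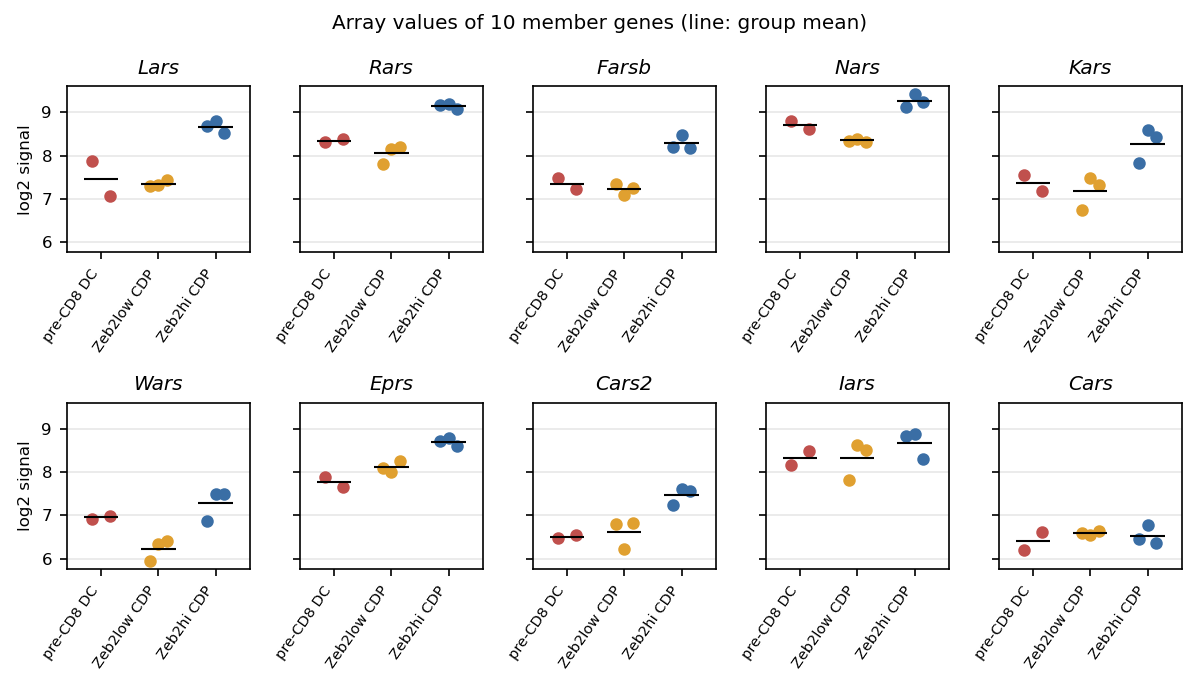
Log2 signal of 10 members on each array, with a line at each group's mean. Lars, Rars, Farsb and Nars have all Zeb2hi arrays above the other 5, Wars has pre-CD8 DCs between the other groups, and Cars has overlapping groups.

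Between Zeb2low and Zeb2hi CDPs, the mitochondrial enzymes differed less than the cytosolic ones. Their mean signals ran from 4.85 (Wars2) to 7.10 (Sars2), and since the 40th percentile of the arrays lay between 4.31 and 4.62, differences of the dimmest members may be understated. Cars2, mitochondrial cysteinyl-tRNA synthetase, which also makes cysteine persulfides, read 6.81, 6.22 and 6.83 in Zeb2low CDPs, against 7.25, 7.61 and 7.58 in Zeb2hi CDPs (difference -0.86 ± 0.20, adjusted p = 0.0231). Iars2, mitochondrial isoleucyl-tRNA synthetase, read 6.15, 6.07 and 6.16 in Zeb2low CDPs, against 6.41, 6.88 and 6.76 in Zeb2hi CDPs (difference -0.56 ± 0.15, adjusted p = 0.0423). In both genes all Zeb2low arrays lay below all Zeb2hi arrays. The other 14 had differences from -0.65 (Nars2) to 0.09 (Vars2), 12 of them negative, and none passed. Hars2 was nearest to the threshold, at -0.50 ± 0.15 (adjusted p = 0.0571). That one compartment passed more often than the other was not tested as a difference.

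The count of lower members depended on single arrays. It was 4 without Zeb2hi array 2, 5 without Zeb2hi array 3, 10 without Zeb2low array 1, 9 without Zeb2low array 2 and 10 without Zeb2low array 3. Farsb, Lars, Nars and Rars passed in all 8 fits without 1 array and under all 21 alternatives. Of the 16 genes, 12 lost the call without Zeb2hi array 2, 11 without Zeb2hi array 3, 6, 7 and 6 without Zeb2low arrays 1, 2 and 3, and 1 (Eprs) without Zeb2hi array 1, with adjusted p of up to 0.165. Without Zeb2hi array 2, 358 of all genes were lower, against 1377 with all arrays. The count of lower cytosolic genes was 4 without Zeb2hi array 2 and 5 without Zeb2hi array 3, and that of the complex 2 and 2, or 3, 4 and 3 without Zeb2low arrays 1, 2 and 3. The mitochondrial count was 0 without Zeb2hi array 2, Zeb2hi array 3 or Zeb2low array 2, and 1 without Zeb2low array 1 or 3. The scaffold count was 0 without Zeb2hi array 2, Zeb2hi array 3 or Zeb2low array 3, and 1 without Zeb2low array 1 or 2. All 16 differences remained negative under every alternative.

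**Figure D3:**
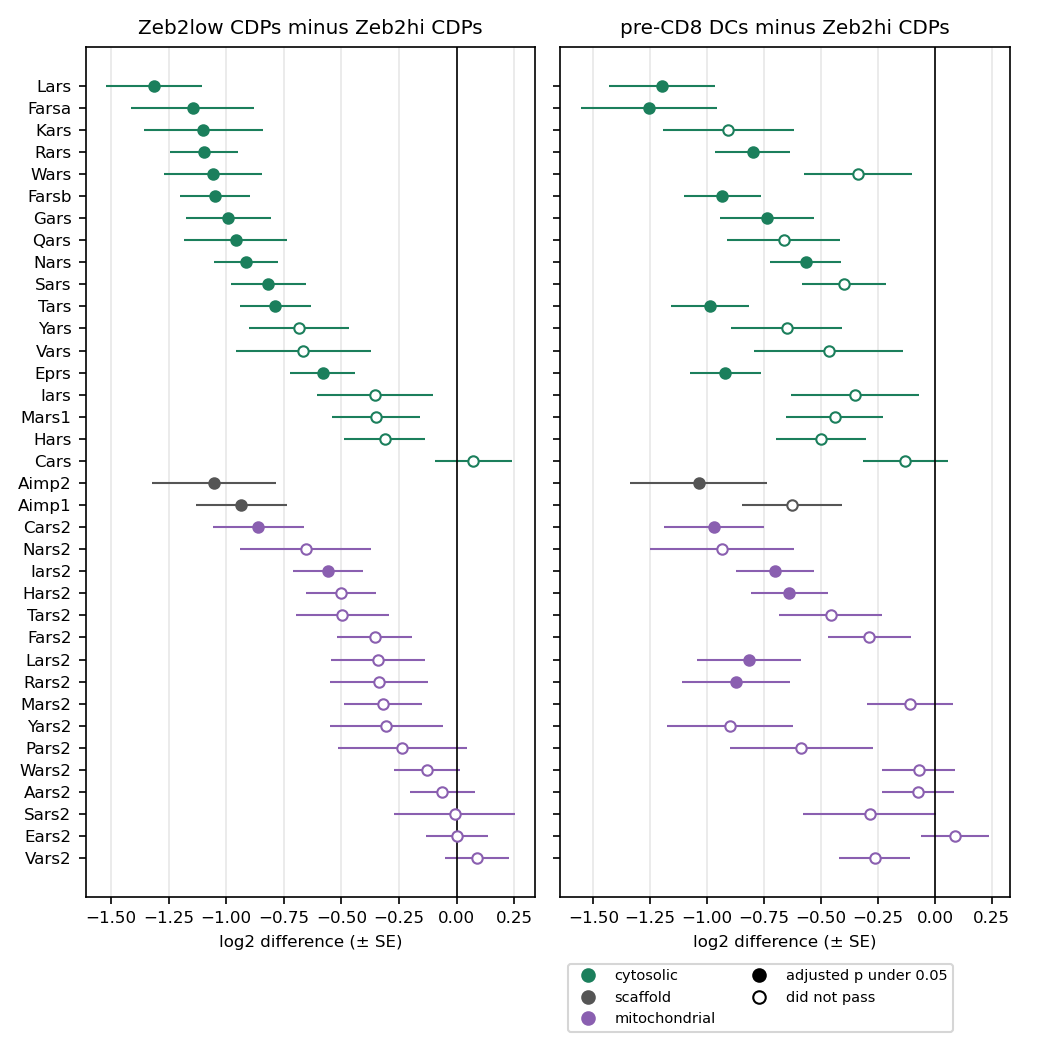
Log2 difference of each member (± SE from limma) in Zeb2low CDPs (left) and pre-CD8 DCs (right) against the same 3 Zeb2hi arrays, with filled points at an adjusted p under 0.05. Filled points number 16 at the left and 14 at the right, all below 0, and those of mitochondrial genes number 2 and 5.

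In pre-CD8 DCs, too, synthetase genes were lower than in Zeb2hi CDPs. Of the 36 genes 14 were lower and 0 higher, where 11.1% of all genes were lower and 6.51% higher. Among the 6248 genes at least as bright as the dimmest cytosolic member, 15.6% were lower. That member, Cars, averaged 6.525, and the mitochondrial members had a median of 6.134, so this set was brighter than many of them. The median difference was -0.63 against -0.02 over all genes, and 35 of 36 differences were negative. Both comparisons use the same Zeb2hi arrays, so they are not independent. In 25 members both pre-CD8 arrays lay below all Zeb2hi arrays, against 27.1% of all genes (48.4% in either direction). The 14 genes were 8 of 18 cytosolic, 5 of 16 mitochondrial and 1 of 2 scaffold genes. The median differences over all genes of these compartments were -0.66, -0.52 and -0.83.

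Farsa had the largest difference, with 6.54 and 6.26 in pre-CD8 DCs against 7.0, 7.95 and 8.02 in Zeb2hi CDPs (difference -1.26 ± 0.30, 2.39-fold lower, adjusted p = 0.0220). Lars read 7.87 and 7.06 in pre-CD8 DCs, a wide spread that stayed below its Zeb2hi arrays (difference -1.20 ± 0.23, adjusted p = 0.00974). Tars read 6.23 and 6.19 (difference -0.99 ± 0.17, adjusted p = 0.00643), Farsb 7.48 and 7.22 (difference -0.93 ± 0.17, adjusted p = 0.00754) and Eprs 7.90 and 7.67 in pre-CD8 DCs (difference -0.92 ± 0.16, adjusted p = 0.00616). For Eprs and Tars the pre-CD8 means, 7.78 ± 0.16 and 6.21 ± 0.03 (SD, n = 2), lay below those of Zeb2low CDPs, 8.12 ± 0.13 and 6.41 ± 0.21 (SD, n = 3), by differences that did not pass. Rars read 8.32 and 8.39 (difference -0.80 ± 0.16, adjusted p = 0.0125), Gars 8.33 and 7.88 (difference -0.74 ± 0.21, adjusted p = 0.0408) and Nars 8.80 and 8.61 in pre-CD8 DCs (difference -0.57 ± 0.16, adjusted p = 0.0372). Aimp2 read 7.44 and 7.23 in pre-CD8 DCs (difference -1.04 ± 0.30, adjusted p = 0.0456), while Aimp1 read 7.90 and 7.25 and did not pass (difference -0.63 ± 0.22, adjusted p = 0.0842).

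Of the cytosolic genes that were lower in Zeb2low CDPs, Kars, Qars, Sars and Wars did not pass in pre-CD8 DCs. Kars read 7.56 and 7.19 in pre-CD8 DCs (difference -0.91 ± 0.29, adjusted p = 0.0618) and Qars 7.03 and 6.50 (difference -0.66 ± 0.25, adjusted p = 0.102). Sars read 7.39 and 7.33 (difference -0.40 ± 0.18, adjusted p = 0.172), and Wars 6.92 and 6.99 (difference -0.34 ± 0.24, adjusted p = 0.370). The pre-CD8 values of Wars lay above the lowest Zeb2hi array. The second Iars probe set read 7.94 and 8.34 in pre-CD8 DCs (difference -0.64 ± 0.19, adjusted p = 0.0514).

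Among mitochondrial enzymes, Cars2 read 6.47 and 6.54 in pre-CD8 DCs (difference -0.97 ± 0.22, adjusted p = 0.0184) and Iars2 6.0 and 5.96 (difference -0.70 ± 0.17, adjusted p = 0.0244). Rars2, the arginyl enzyme whose mutation in humans causes a brain malformation, read 6.35 and 5.88 in pre-CD8 DCs, 6.96, 6.72 and 6.27 in Zeb2low CDPs, and 6.87, 7.16 and 6.94 in Zeb2hi CDPs. Its difference from Zeb2hi CDPs was -0.87 ± 0.24 in pre-CD8 DCs (adjusted p = 0.0356) and -0.34 ± 0.21 in Zeb2low CDPs (adjusted p = 0.292). Lars2, the leucyl enzyme, read 4.87 and 5.52 in pre-CD8 DCs, 5.87, 5.50 and 5.63 in Zeb2low CDPs, and 5.77, 6.10 and 6.15 in Zeb2hi CDPs, with differences from Zeb2hi CDPs of -0.82 ± 0.23 in pre-CD8 DCs (adjusted p = 0.0406) and -0.34 ± 0.21 in Zeb2low CDPs (adjusted p = 0.273). Hars2, the histidyl enzyme, read 5.56 and 5.52 in pre-CD8 DCs, 5.65, 5.57 and 5.81 in Zeb2low CDPs, and 6.42, 6.08 and 6.05 in Zeb2hi CDPs (pre-CD8 difference -0.64 ± 0.17, adjusted p = 0.0328). Yars2 was uneven in pre-CD8 DCs, at 5.60 and 6.68, and did not pass (difference -0.90 ± 0.28, adjusted p = 0.0546).

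With only 2 pre-CD8 arrays this count was also unstable. It was 4 without Zeb2hi array 2, 5 without Zeb2hi array 3, 7 without pre-CD8 array 1, 8 without pre-CD8 array 2 and 9 without Zeb2low array 2, which enters through the shared estimate of spread. Eprs, Farsb, Lars and Tars passed in all 8 fits without 1 array and under all 20 alternatives. The other 10 genes lost the call without at least 1 array: 8 without either pre-CD8 array, 2, 10 and 9 without Zeb2hi arrays 1, 2 and 3, and 5 and 4 without Zeb2low arrays 2 and 3, with adjusted p of up to 0.232. The count of lower mitochondrial genes, 5 with all arrays, was 0 without Zeb2hi array 2 or 3, 1 and 2 without pre-CD8 arrays 1 and 2 (1 of the 2 being Yars2, which passed only then among the fits without 1 array), and 3 without Zeb2low array 2. That of cytosolic genes, 8 with all arrays, was 4 and 5 without Zeb2hi arrays 2 and 3, and 5 without pre-CD8 array 1. Aimp2 lost its call without Zeb2hi array 2 or 3, either pre-CD8 array, or Zeb2low array 2 or 3. All 14 differences remained negative under every alternative.

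Between pre-CD8 DCs and Zeb2low CDPs, 0 of 36 members were higher and 0 lower by limma, where 0.337% and 0.217% of all genes were. At an unadjusted p under 0.05, Sars and Wars were above and Rars2 and Vars2 below. The median difference was 0.01, against -0.03 over all genes, with 19 positive and 17 negative values. The largest was that of Wars, with 6.92 and 6.99 in pre-CD8 DCs against 5.94, 6.35 and 6.42 in Zeb2low CDPs (difference 0.72 ± 0.24, adjusted p = 0.247). Sars read 7.39 and 7.33 in pre-CD8 DCs, against 6.86, 6.79 and 7.18 in Zeb2low CDPs (difference 0.42 ± 0.18, adjusted p = 0.376). Vars2, the mitochondrial valyl enzyme, read 5.66 and 5.81 in pre-CD8 DCs, against 6.21, 6.07 and 5.99 in Zeb2low CDPs (difference -0.35 ± 0.16, adjusted p = 0.379). In 4 members both pre-CD8 arrays lay above all Zeb2low arrays and in 4 below, where 27.7% of all genes were apart in either direction and 15.4% apart and lower. Without pre-CD8 array 2, Yars2 was lower (difference -1.14, adjusted p = 0.0415).

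In all 18 cytosolic genes the highest of the 8 arrays was a Zeb2hi array, and in 12 all 3 Zeb2hi arrays lay above the other 5. The same held for 12 and 4 of the 16 mitochondrial genes. These 2 patterns were counted over the members only, and their shares of all genes were not computed. In single comparisons, all Zeb2low arrays lay below all Zeb2hi arrays in 21.5% of all genes, and both pre-CD8 arrays in 27.1%. Pre-CD8 DCs and Zeb2low CDPs had no common order: 12 of the 18 cytosolic differences between them were positive and 6 negative. The median over the 18 cytosolic genes was 7.44 and 7.21 on the pre-CD8 arrays, 7.07, 7.19 and 7.29 on the Zeb2low arrays, and 7.84, 8.25 and 8.10 on the Zeb2hi arrays. For the 16 mitochondrial genes it was 5.63 and 5.85 on the pre-CD8 arrays, 6.10, 6.07 and 6.07 on the Zeb2low arrays, and 6.37, 6.38 and 6.30 on the Zeb2hi arrays. Pre-CD8 DCs thus had the lowest mitochondrial medians, and Zeb2low array 1 the lowest cytosolic one.

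The 6 members with the smallest spread of group means among those that never passed were Aars2, Ears2, Wars2, Cars, Sars2 and Mars2. Aars2, the mitochondrial alanyl enzyme, read 5.30 and 5.49 in pre-CD8 DCs, 5.49, 5.38 and 5.34 in Zeb2low CDPs, and 5.35, 5.40 and 5.64 in Zeb2hi CDPs. Ears2, the glutamyl enzyme of mitochondria, read 5.55 and 5.45 in pre-CD8 DCs, 5.45, 5.52 and 5.26 in Zeb2low CDPs, and 5.34, 5.46 and 5.42 in Zeb2hi CDPs. Both had overlapping groups throughout. Wars2, at 4.64 to 5.02 on the arrays, was closest to the floor. Cars, the cytosolic cysteinyl enzyme, read 6.19 and 6.61 in pre-CD8 DCs, 6.61, 6.56 and 6.65 in Zeb2low CDPs, and 6.46, 6.77 and 6.36 in Zeb2hi CDPs. Cysteinyl-tRNA synthetases thus included one gene with overlapping groups in the cytosol (Cars) and one that was lower in both comparisons in mitochondria (Cars2). Sars2, the seryl enzyme, read 6.37 and 7.41 in pre-CD8 DCs, 6.87, 7.33 and 7.30 in Zeb2low CDPs, and 7.02, 7.27 and 7.24 in Zeb2hi CDPs. Mars2, the methionyl enzyme, read 6.30 and 6.41 in pre-CD8 DCs, 5.84, 6.34 and 6.27 in Zeb2low CDPs, and 6.36, 6.62 and 6.42 in Zeb2hi CDPs.

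The counts of the following gene lists stand beside 10.3% lower and 4.5% higher of all genes in Zeb2low CDPs, and 11.1% lower and 6.51% higher in pre-CD8 DCs. Of 12 other genes of tRNA charging, Dtd1, Eef1e1 and Aarsd1 were lower in Zeb2low CDPs, and the same 3 in pre-CD8 DCs. Eef1e1, the remaining scaffold gene of the multi-synthetase complex, read 6.25 and 6.88 in pre-CD8 DCs, 6.23, 6.72 and 6.69 in Zeb2low CDPs, and 7.68, 7.75 and 7.95 in Zeb2hi CDPs. Its differences from Zeb2hi CDPs were -1.23 ± 0.23 in pre-CD8 DCs (adjusted p = 0.00912) and -1.25 ± 0.21 in Zeb2low CDPs (adjusted p = 0.0080). Dtd1, a deacylase that removes D-amino acids from tRNA, read 7.16 and 6.68 in pre-CD8 DCs, 6.93, 7.23 and 6.78 in Zeb2low CDPs, and 8.64, 8.68 and 8.63 in Zeb2hi CDPs. Its differences were -1.73 ± 0.20 in pre-CD8 DCs (adjusted p = 0.00118) and -1.67 ± 0.18 in Zeb2low CDPs (adjusted p = 0.00172), with tight Zeb2hi arrays far above the rest.

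Of 57 genes of tRNA maturation and modification, 14 were lower and 1 higher in Zeb2low CDPs (median difference -0.35), and 15 lower and 0 higher in pre-CD8 DCs (median -0.50). Thg1l, which adds the 5′ guanosine of histidine tRNA, read 6.33 and 5.81 in pre-CD8 DCs, 4.69, 5.36 and 6.01 in Zeb2low CDPs, and 7.0, 8.21 and 7.82 in Zeb2hi CDPs. Rtcb, the ligase that joins the exons of spliced tRNAs, read 8.33 and 7.79 in pre-CD8 DCs, 7.64, 7.38 and 7.20 in Zeb2low CDPs, and 9.30, 9.74 and 9.86 in Zeb2hi CDPs. Their differences in Zeb2low CDPs were -2.32 ± 0.38 (adjusted p = 0.00756) and -2.23 ± 0.21 (adjusted p = 0.00105), larger than that of any synthetase gene. Ddx1, a helicase of the ligase complex, had a difference of -1.56 ± 0.17 in Zeb2low CDPs (adjusted p = 0.00177), and the RNA kinase gene Clp1 one of -1.14 ± 0.17 (adjusted p = 0.00497). Rpp21, a subunit of ribonuclease P, was the gene that was higher (difference 1.07 ± 0.29, adjusted p = 0.0407), a call that was lost with the block over all 8 arrays and without any single CDP array other than Zeb2hi array 1. Of 20 genes of RNA polymerase III, which transcribes tRNAs, 4 were lower in Zeb2low CDPs and 5 in pre-CD8 DCs, where 16.1% and 15.6% of the brighter genes were lower, with Gtf3c4 the largest in Zeb2low CDPs (-0.94 ± 0.23, adjusted p = 0.0275) and Polr3k in pre-CD8 DCs (-1.10 ± 0.20, adjusted p = 0.00698). With the replicate block on the CDP arrays alone, the lower genes in Zeb2low CDPs numbered 23 of tRNA maturation (2 were higher), 7 of RNA polymerase III and 5 of other tRNA charging. For tRNA maturation the count in Zeb2low CDPs was 6, 7 and 9 without Zeb2hi array 2, Zeb2hi array 3 and Zeb2low array 2, and in pre-CD8 DCs 7, 9 and 8 without pre-CD8 array 1, Zeb2hi array 2 and Zeb2hi array 3. For RNA polymerase III it was 0 without Zeb2hi array 2 or 3 or Zeb2low array 3 and 1 without Zeb2low array 2 in Zeb2low CDPs, and 2 without pre-CD8 array 1 or Zeb2hi array 2 in pre-CD8 DCs.

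**Figure D4:**
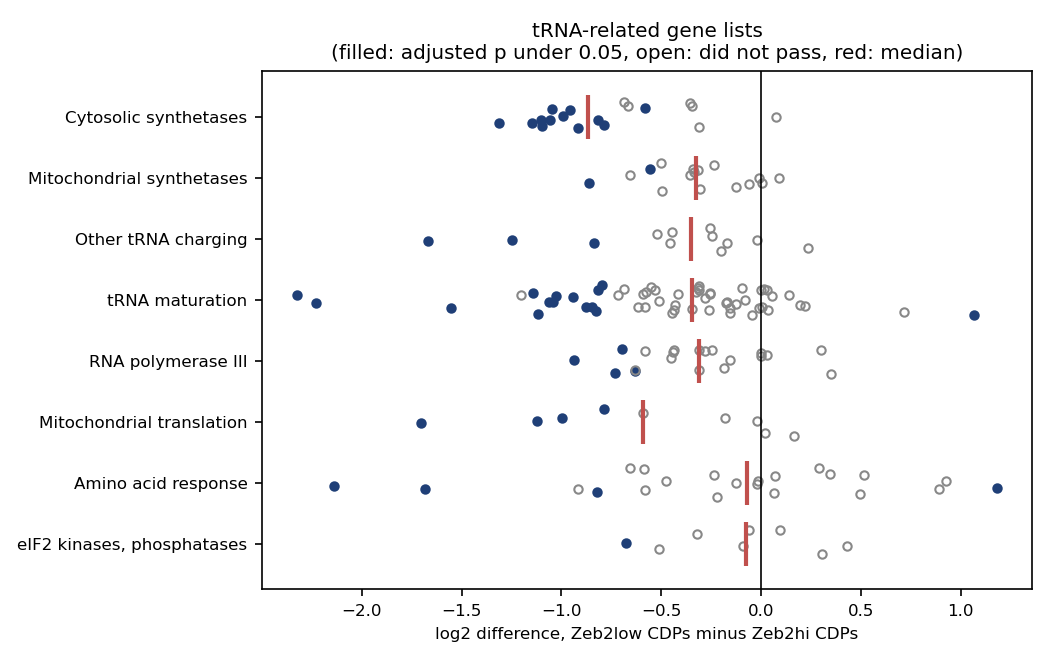
Log2 difference between Zeb2low and Zeb2hi CDPs of each measured gene of 8 lists, with filled points at an adjusted p under 0.05 and a red line at the median of each list. The medians of the cytosolic synthetases (-0.87) and mitochondrial translation factors (-0.59) lie farthest from 0, and that of the amino acid response genes (-0.07) near it.

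Of 9 mitochondrial translation factors, Tufm, Tsfm, Mrrf and Mtrf1 were lower in Zeb2low CDPs, and Tufm and Mtrf1 in pre-CD8 DCs. Tufm, the elongation factor that brings charged tRNA to the mitochondrial ribosome, read 7.09 and 6.32 in pre-CD8 DCs, 6.09, 6.24 and 6.39 in Zeb2low CDPs, and 7.47, 8.17 and 8.20 in Zeb2hi CDPs. Its differences were -1.24 ± 0.29 in pre-CD8 DCs (adjusted p = 0.0199) and -1.70 ± 0.26 in Zeb2low CDPs (adjusted p = 0.00564). Without Zeb2hi array 2 or 3, 1 factor was lower in pre-CD8 DCs and 2 in Zeb2low CDPs. With the replicate block, 3 were lower in Zeb2low CDPs over all arrays and 5 over the CDP arrays alone.

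Of the 22 amino acid response genes measured, 3 were lower and 1 higher in Zeb2low CDPs (median difference -0.07), and 3 lower and 4 higher in pre-CD8 DCs (median -0.05). The lower shares, 13.6% in both, lie near the shares of all genes, as does the higher one in Zeb2low CDPs. The lower genes were Phgdh and Shmt2 in both comparisons, with Psat1 in Zeb2low CDPs (difference -0.82) and Psph in pre-CD8 DCs (difference -0.84). Phgdh, the first enzyme of serine synthesis, read 6.02 and 4.31 in pre-CD8 DCs, 5.30, 6.12 and 6.49 in Zeb2low CDPs, and 7.28, 8.60 and 8.44 in Zeb2hi CDPs, with differences of -2.94 ± 0.57 in pre-CD8 DCs (adjusted p = 0.00975) and -2.14 ± 0.51 in Zeb2low CDPs (adjusted p = 0.0260). Shmt2, which splits serine into glycine and a one-carbon unit in mitochondria, had differences of -2.20 ± 0.39 in pre-CD8 DCs (adjusted p = 0.00708) and -1.68 ± 0.35 in Zeb2low CDPs (adjusted p = 0.0171). Chac1, a glutathione-degrading enzyme induced by ATF4, was higher, by 1.06 ± 0.30 in pre-CD8 DCs (adjusted p = 0.0404) and by 1.18 ± 0.27 in Zeb2low CDPs (adjusted p = 0.0219). Ddit4, Sesn2 and Nupr1, stress-induced genes, were higher in pre-CD8 DCs by 1.12 ± 0.30, 0.92 ± 0.24 and 0.82 ± 0.22. Atf4 itself read 9.37 and 9.35 in pre-CD8 DCs, 8.73, 9.10 and 9.18 in Zeb2low CDPs, and 8.90, 9.33 and 9.48 in Zeb2hi CDPs, and did not pass in either comparison (differences 0.13 ± 0.21, adjusted p = 0.731, and -0.23 ± 0.19, adjusted p = 0.409). Myc, a regulator of growth genes, did not pass either, at -0.23 ± 0.29 in pre-CD8 DCs (adjusted p = 0.625) and -0.10 ± 0.26 in Zeb2low CDPs (adjusted p = 0.798). Among the synthetases listed as ATF4 targets, 5 of 12 were lower in pre-CD8 DCs and 7 of 12 in Zeb2low CDPs, against 3 and 5 of the 6 cytosolic genes not on that list. For the genes not on the list the count in pre-CD8 DCs was 1 without Zeb2hi array 2 or pre-CD8 array 1. In Zeb2low CDPs it was 2 without Zeb2hi array 2, Zeb2hi array 3 or Zeb2low array 1, and 3 without Zeb2low array 2 or 3. Without Zeb2hi array 2 or 3 the listed targets that were lower numbered 3 in pre-CD8 DCs, and 2 and 3 in Zeb2low CDPs; without Zeb2low array 2 or 3 they numbered 3 in pre-CD8 DCs. With the block on the CDP arrays alone, 7 amino acid response genes were lower and 3 higher in Zeb2low CDPs. Without Zeb2hi array 2 or 3, 0 of these genes were lower or higher in Zeb2low CDPs and 0 were higher in pre-CD8 DCs. In Zeb2low CDPs the higher count was also 0 without Zeb2low array 3, and 2 without Zeb2hi array 1, Zeb2low array 1 or either pre-CD8 array. In pre-CD8 DCs it was 1 without either pre-CD8 array or Zeb2hi array 1, and 2 without Zeb2low array 3. A list of 8 genes held eIF2 kinases, phosphatase subunits and the kinase regulators Gcn1 and Impact, which act upstream of ATF4. Of these, Eif2ak1 was lower in Zeb2low CDPs (-0.68 ± 0.13, adjusted p = 0.0139) and Ppp1r15b higher in pre-CD8 DCs (0.64 ± 0.17, adjusted p = 0.0372). With the block on the CDP arrays alone, 2 of the list were lower in Zeb2low CDPs. The calls of Eif2ak1 and Ppp1r15b were lost without Zeb2hi array 2 or 3, and that of Ppp1r15b also without either pre-CD8 array, Zeb2low array 2 or 3. A second, dimmer probe set of Ppp1r15b had overlapping groups. It read 7.79 and 7.12 in pre-CD8 DCs, against 5.87, 7.25 and 7.08 in Zeb2hi CDPs.

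Markers of other cell types moved with the groups, and their part in the synthetase differences was not tested. Of the 13 neutrophil markers, 4 were higher in pre-CD8 DCs and 3 in Zeb2low CDPs than in Zeb2hi CDPs, and 0 passed the test as lower. Every pre-CD8 and Zeb2low array nevertheless lay below every Zeb2hi array for Mpo. Its log2 differences were -1.11 in pre-CD8 DCs and -1.75 in Zeb2low CDPs. None of the array values is a 0, since the summarised signal has a floor. Pre-CD8 array 2 (9.97) and Zeb2low array 1 (9.54) had mean neutrophil signals within the range of the Zeb2hi arrays (8.40 to 10.05). Single markers did not all lie in that range. On pre-CD8 array 2, S100a8, S100a9, Ltf, Camp, Ngp and Lcn2 lay above every Zeb2hi array. On Zeb2low array 1, S100a8, S100a9, Retnlg, Mmp8 and Cxcr2 did. Mpo lay below every Zeb2hi array on both, at 11.21 and 9.21 against 12.56 to 12.63, as did Elane. The other markers lay within the Zeb2hi range on these arrays. Of the 18 cytosolic members, 17 and 12 lay below every Zeb2hi array on pre-CD8 arrays 1 and 2. On Zeb2low arrays 1, 2 and 3 it was 16, 16 and 14. The shares of all genes were not computed for single arrays, and a relation to the neutrophil signal was not tested. Pre-CD8 array 1 and Zeb2low array 2 had the highest neutrophil signal of their groups. They were left out together, an omission chosen after seeing the data. Zeb2hi array 2, the highest of its own group at 10.05, was kept. In that fit 9 members and 996 of all genes were lower in Zeb2low CDPs.

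**Figure D5:**
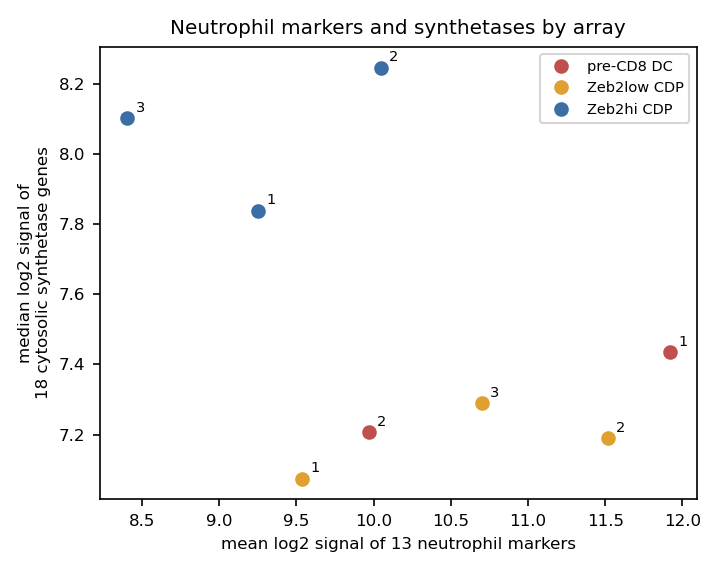
Mean log2 signal of 13 neutrophil markers (x axis) and median log2 signal of the 18 cytosolic synthetase genes (y axis) on each of the 8 arrays, labelled by replicate number. The Zeb2hi arrays lie between 7.84 and 8.25 on the y axis and all others between 7.07 and 7.44.

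The 5 mast cell and basophil markers measured averaged 6.43 and 6.10 in pre-CD8 DCs, 5.60, 5.80 and 6.64 in Zeb2low CDPs, and 5.25, 5.01 and 5.13 in Zeb2hi CDPs. Of these, 1 was higher in pre-CD8 DCs and 2 in Zeb2low CDPs. The 3 T and NK cell markers averaged 6.82 and 6.45 in pre-CD8 DCs, 5.88, 6.81 and 7.04 in Zeb2low CDPs, and 5.84, 5.97 and 5.89 in Zeb2hi CDPs, with Cd3e higher in both comparisons. The mean of Zeb2low array 1 again lay within the Zeb2hi range. Its Cd3e (5.69) and Cd3d (4.64) lay above every Zeb2hi array, which reached at most 5.37 and 4.31. Its Nkg7 (7.30) lay below every Zeb2hi array, the lowest being 8.01. The 3 erythroid and megakaryocyte markers averaged 5.50 and 4.74 in pre-CD8 DCs, 5.01, 4.93 and 4.74 in Zeb2low CDPs, and 4.38, 4.49 and 4.41 in Zeb2hi CDPs. The 6 monocyte and macrophage markers averaged 7.21 and 6.42 in pre-CD8 DCs, 7.01, 7.36 and 7.02 in Zeb2low CDPs, and 7.61, 7.47 and 7.56 in Zeb2hi CDPs, with 2 lower in pre-CD8 DCs and 1 in Zeb2low CDPs. The 6 B and plasma cell markers averaged 5.54 and 4.88 in pre-CD8 DCs, 4.98, 5.52 and 5.32 in Zeb2low CDPs, and 5.00, 4.87 and 4.85 in Zeb2hi CDPs, with 1 higher and 1 lower in each comparison.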

How the data were processed

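Per the labels' protocols, RNA of 8 samples was amplified and run on Affymetrix arrays. Per the submitters' processing notes, the authors used RMA and Affymetrix Expression Console (no version is given in the sources used here), and the deposited values are probe set intensities on a linear scale, each one intensity per probe set and array. RMA leaves no detection call, and the number of arrays limits the precision. Titles gave the groups and replicate numbers.

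Probe sets were named from the platform annotation: 21789 with 1 gene, 1621 with several and 5443 with none, and only the first kind was used. On the log2 scale, a probe set was kept where 2 or more arrays exceeded their own 40th percentile, and the brightest probe set stood for its gene, leaving 13356 genes. Limma 3.58.1 in R 4.3.3 (lmFit and eBayes, two-sided) compared the groups in 1 fit of all 8 arrays (5 residual degrees of freedom), with Benjamini-Hochberg adjustment over all genes at 0.05. The value after ± is the standard error of a difference or, where marked SD, the spread of a group.

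The members, gene lists and tests were chosen with earlier results of these data known. Array values are given for members past the test and for the 6 other members with the smallest range of group means; of each gene list, up to 4 past the test per direction could be named. Zeb2, Myc and Atf4 were named as single genes.

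Deviations from the group means correlated across genes between Zeb2low and Zeb2hi arrays of the same number (r = 0.478, 0.407 and 0.308 for numbers 1, 2 and 3), so these numbers were taken to pair the arrays. Those of pre-CD8 and Zeb2hi arrays of the same number did not (r = -0.17 and -0.31). Neither did those of pre-CD8 and Zeb2low arrays (r = -0.40 and -0.59). Arrays of unlike number could correlate more strongly, as pre-CD8 array 1 and Zeb2low array 2 did (r = 0.587). The pairing is thus inferred from these values and is not given by the labels.

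Tested on simulated data of 13356 genes with independent noise, the fit recovered 58 of 100 genes with a 2-fold change and 91 of 100 with a 4-fold change for Zeb2low against Zeb2hi CDPs, with 10 false calls. It recovered 46 and 81 for pre-CD8 DCs against Zeb2hi CDPs (9 false calls), and 42 and 91 for pre-CD8 DCs against Zeb2low CDPs (5 false calls). No further genes were changed in a simulation, whereas 1377 genes were lower in Zeb2low than in Zeb2hi CDPs. Deviations of the real arrays were also correlated, so these rates need not hold for the real data.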

Additional observations from a re-analysis of the deposited data

How the results depend on the processing

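Every member past the test kept a negative difference under each alternative run. The lower members in Zeb2low CDPs numbered 16, against 4 to 18 without single arrays, 15 with the replicate block over all arrays and 19 with it over the CDP arrays alone. With array weights 24 were lower. In pre-CD8 DCs 14 were lower than in Zeb2hi CDPs, against 9 with quantile normalization, 8 in a fit of the 2 groups alone, 6 with the replicate block, 8 without Zeb2low array 1 and pre-CD8 array 1 together, and 4 to 16 without single arrays. Without Zeb2low array 2 and pre-CD8 array 1 together, 9 and 6 were lower in Zeb2low CDPs and pre-CD8 DCs. Between pre-CD8 DCs and Zeb2low CDPs, 0 to 1 were lower without single arrays, and 0 were higher in each comparison under every alternative. The cause of these changes was not tested. The median of the members kept its size within the spread between arrays under every alternative. Centring the arrays on the median moved the median of all genes in Zeb2low CDPs to -0.14 from 0.03 and that of the members to -0.73, and the calls over all genes to 371 higher and 2233 lower, against 601 and 1377. Quantile normalization gave 665 higher and 960 lower. Of the single members, 20 values in Zeb2low CDPs and 15 in pre-CD8 DCs against Zeb2hi CDPs newly passed under an alternative and 58 and 85 no longer passed, of 752 and 716 computed. The filter at the 60th percentile tested 32 members. Apart from those given beside the results, the block changed no member's call in Zeb2low against Zeb2hi CDPs; in pre-CD8 DCs its numbers pair no arrays. Signal near the floor limits the mitochondrial genes.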
